A study of Mus musculus with 6 samples.

Results

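Laminin chain transcripts were examined in GFP+ cells purified from embryonic mouse livers, comparing E16.5 with E18.5. The 9 genes Lama1, Lama2, Lama3, Lama4, Lama5, Lamb1, Lamb2, Lamb3 and Lamc1 were taken by name from the 52550 genes listed in the deposited table, and each of the 9 was found there. All embryos were CD-1 mice carrying the Sox9-GFP reporter, with no treatment at either stage, and each stage is represented by 3 libraries that carry the letters A, B and C. The labels give the stages as embryonic day 16 and embryonic day 18, whereas the study's methods name them E16.5 and E18.5. Each library came from a pool of livers from which hematopoietic cells had been depleted with magnetic beads before GFP+ cells were sorted by flow cytometry. The reporter marks cells in which Sox9, a biliary transcription factor, is active, so that any Sox9-expressing cell of the liver can enter the sort. The labels do not say whether the 3 pools of a stage came from separate litters, and p-values therefore measure the spread between these libraries only.

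Laminins are secreted glycoproteins that assemble inside the cell from 1 alpha, 1 beta and 1 gamma chain, and are then deposited as the sheet to which collagen IV, nidogens and perlecan attach in a basement membrane. The alpha chain carries the domains bound by integrins and dystroglycan, and the beta and gamma chains complete the coiled coil and link laminins to each other and to nidogen. In the developing liver, bile ducts form next to the portal vein, and their cells lay down a laminin-rich basement membrane on the basal side. Lama1 and Lama5 encode the alpha chains of many embryonic epithelia. Lama2 and Lama4 encode alpha chains best known from muscle and mesenchyme and from blood vessels, and Lama3 with Lamb3 encodes chains of the trimer that anchors epithelia through hemidesmosomes. Lamb1 and Lamb2 are alternative beta chains, and Lamc1 is the gamma chain of most laminins.

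Sequence before the start site is shown for Lama5, the most abundant alpha chain, and for Lamb1 and Lamb2, the 2 abundant beta chains. RefSeq windows on GRCm38.p6 matched 5 of the 9 members, namely Lama2, Lama5, Lamb1, Lamb2 and Lamb3. The letters are those of the coding strand, 5′ to 3′. Capitals mark a GC box (GGGCGG, or CCGCCC on the other strand) or a CAAT box (CCAAT, on either strand). The stretch of Lama5 is chr2:180225860-180226109, minus strand. That of Lamb1 is chr12:31265043-31265233 and that of Lamb2 is chr9:108479612-108479735, both on the plus strand. The last 59 bases before the RefSeq start of Lamb1 and the last 126 before that of Lamb2 lie inside the GENCODE gene and are left out of the printed letters.
Lama5: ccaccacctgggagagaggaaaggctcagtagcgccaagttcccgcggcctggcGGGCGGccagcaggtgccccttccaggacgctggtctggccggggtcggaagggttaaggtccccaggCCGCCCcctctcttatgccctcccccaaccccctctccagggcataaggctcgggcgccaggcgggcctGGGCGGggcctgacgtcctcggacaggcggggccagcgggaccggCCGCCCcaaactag
Lamb1: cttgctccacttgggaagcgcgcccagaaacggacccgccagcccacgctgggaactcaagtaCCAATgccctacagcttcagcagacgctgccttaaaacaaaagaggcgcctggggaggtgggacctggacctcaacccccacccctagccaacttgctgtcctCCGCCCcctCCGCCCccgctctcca
Lamb2: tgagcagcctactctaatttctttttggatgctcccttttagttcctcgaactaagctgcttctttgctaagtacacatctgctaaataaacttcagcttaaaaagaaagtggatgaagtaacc
Over the 250 bases before the RefSeq start, the Lama5 window had a GC content of 72.4% and held 4 GC boxes. The Lamb1 window had a GC content of 62% and held 2 GC boxes and 1 CAAT box, and the Lamb2 window, at 43.6% GC, held neither. Among 32851 mouse windows of the same length, the median GC content was 52.4%, 32.7% held a GC box and 33.8% a CAAT box. A TATA box (TATAAA) and an AP-1 site (TGANTCA) were searched on both strands as well. Neither was found in a window of the 5 members, against 12.4% and 6.75% of all windows. The windows of Lama2 and Lamb3 lie wholly inside the GENCODE gene. An E-box (CANNTG), present in 66.2% of all windows, had 2 matches in Lama5, 2 in Lamb1 and 1 in Lamb2.

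The 9 genes lie at 9 places on 7 chromosomes of GRCm38. Lama1 spans chr17:67697259-67822647 on the plus strand, Lama2 spans chr10:26980036-27619758 on the minus strand, and Lama4 spans chr10:38965515-39110188 on the plus strand. Lama3 lies at chr18:12333819-12583013 on the plus strand and Lama5 at chr2:180176373-180225859 on the minus strand. Among the beta chains, Lamb1 spans chr12:31265234-31329644, Lamb2 spans chr9:108479736-108490530 and Lamb3 spans chr1:193207699-193343878, all on the plus strand. Lamc1 spans chr1:153218922-153332786 on the minus strand. Of the exon bases of Lama2, 3.86% are shared with the antisense gene Gm48084, and of those of Lama3, 1.83% are shared with the antisense gene Gm29200. The other members share no exon with another annotated gene. Whether the counting used the strand is not given in the sources used here, and reads in the shared exons of Lama2 and Lama3 are therefore uncertain.

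The libraries held between 13093937 reads (E18.5 C) and 26206374 reads (E16.5 A), and a member rested on between 56 reads (Lama3 in E16.5 B) and 26821 reads (Lamc1 in E18.5 A). Sox9 itself was listed at 69.5–186 TPM in the E16.5 libraries and 353–466 TPM in the E18.5 libraries. All 8 cholangiocyte markers were present in every library. Of the 8, 7 rose (limma), where 26.0% of all genes did, and the 8 summed to 664–2327 TPM before and 7763–13540 TPM after. Most of these sums was Spp1, listed at 469–1767 TPM and 6629–12120 TPM. Markers of other cell types were present as well: the hepatocyte gene Alb was listed at 117900–148100 TPM in the E16.5 libraries and 30020–70150 TPM in the E18.5 libraries, and the 6 megakaryocyte markers summed to 2626–7842 TPM and 66.0–612 TPM, respectively. Library E16.5 C had the lowest cholangiocyte sum and the highest megakaryocyte sum. TPM, the level of a transcript per length as a share of its library, sums to the same total in each library, and the median difference over the 22452 genes tested was 0.42 on the log2 scale in favour of E18.5. With libraries rescaled by the median of ratios the same median was 0.03, so differences of the members are given on both scalings. Of the genes called by limma at an adjusted p under 0.05, 83.3% were higher at E18.5 as deposited and 42.1% after rescaling. Of the 8 cholangiocyte markers, 4 were higher after rescaling (limma), where 7.34% of all genes were.

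Lamc1 was the most abundant laminin transcript at both stages, with means of 226 ± 40.1 TPM (SD, n = 3) and 447 ± 44.8 TPM, above 98.5% and 99.4% of protein-coding genes. At E16.5 it was followed by Lamb2 (117 ± 20.4 TPM), Lama5 (107 ± 44.9 TPM), Lama1 (65.9 ± 15.7 TPM) and Lamb1 (51.4 ± 22.9 TPM). The ranges of Lamb2 and Lama5, of Lama5 and Lama1, and of Lama1 and Lamb1 overlapped across the libraries. Within a library, Lama5 was above Lama1 and Lama1 above Lamb1 in 3 of 3, and Lamb2 was above Lama5 in 2 of 3. At E18.5 the order was Lamc1, Lama5 (287 ± 6.65 TPM), Lamb2 (187 ± 27.4 TPM), Lamb1 (110 ± 2.13 TPM) and Lama1 (102 ± 22.5 TPM), and only Lamb1 and Lama1 overlapped among these neighbours. The remaining members, Lamb3, Lama4, Lama2 and Lama3, had means between 0.710 and 3.12 TPM in E16.5 cells and between 2.68 and 9.54 TPM in E18.5 cells. Among the 4, Lama3 had the lowest level at both stages and did not overlap with its neighbour, and the other neighbours overlapped.

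Levels per length depend on the length used. The TPM divide by all exon bases of a gene, and for Lama4, Lamb1, Lama2 and Lamb3 these exceed the principal protein-coding transcript 2, 1.78, 1.7 and 1.36 times. Divided by the principal transcript instead, a choice made after seeing the data, Lamb1 had mean levels of 91.7 and 196 TPM, beside 127 and 202 TPM for Lamb2. At E18.5 the levels of Lamb1 were then 192, 198 and 199 TPM and those of Lamb2 were 212, 226 and 169 TPM, so that these ranges overlapped. The order of the E16.5 means of Lama1 and Lamb1 turned, with Lama1 at 65.9 TPM. In E16.5 C, Lama1 stayed above Lamb1, at 48.3 against 44.5 TPM, and the E16.5 ranges overlapped. At E18.5 Lamb1 lay above Lama1 (75.8 to 117 TPM) with no overlap. The ratio of the TPM of 1 gene between the stages is the same for either length, whereas its difference in log2(TPM + 1) is not, chiefly for low genes.

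**Figure D1:**
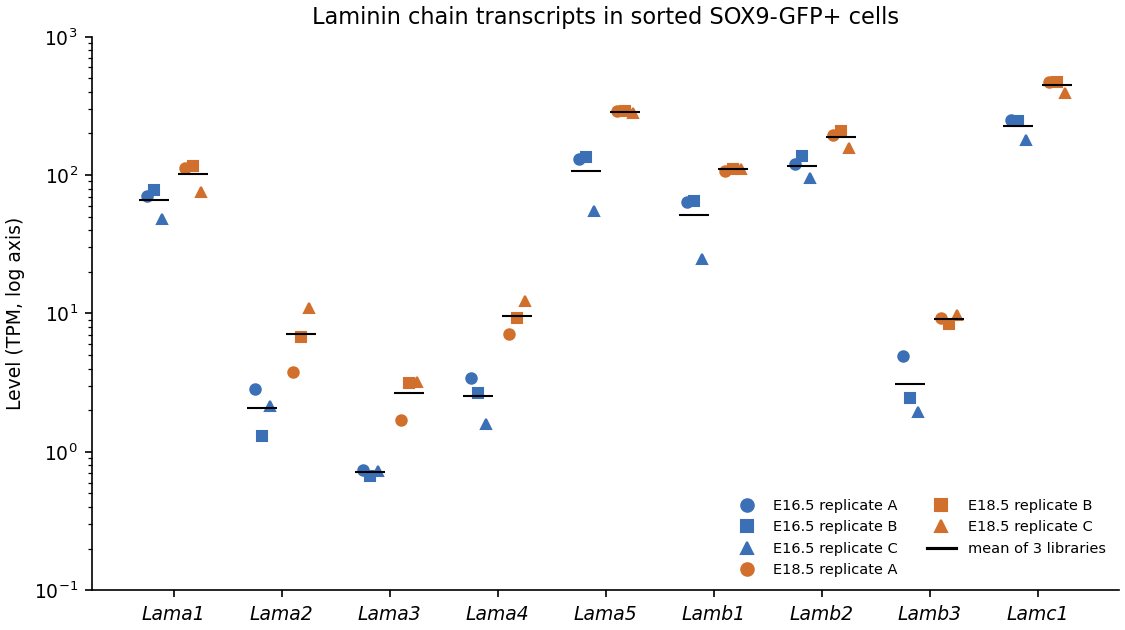
Level of each laminin chain (TPM, log axis) in the 3 E16.5 libraries (blue) and the 3 E18.5 libraries (orange), with the replicate letter given by the symbol and the mean of 3 libraries by the bar. Lamc1 has the highest mean at both stages and Lama3 the lowest, and Lama1 is the member whose stages overlap.

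Laminin transcripts were more abundant at E18.5. The 9 chains together accounted for 410 to 667 TPM in the E16.5 libraries and 1054 to 1226 TPM in the E18.5 libraries. By limma on log2(TPM + 1), with adjustment over all genes tested, 8 of the 9 chains rose and Lama1 did not pass. The background for this count was 26.0% of all genes higher at E18.5. None of the 9 was lower at E18.5 by the same test, where 5.22% of all genes were. All 9 differences were positive in limma, as were all 8 in voom, where Lama1 was not tested. That 0 were lower at an unadjusted p under 0.05 follows from these signs. In 8 of 9 members every E18.5 library lay above every E16.5 library, as it did for 45.0% of all genes. After median-of-ratios scaling, 3 of the 9 passed (Lama4, Lama5 and Lamc1), against a background of 7.34%, and all 9 differences were still positive. The median log2 difference of the members was 1.21 as deposited and 0.83 after rescaling, against 0.42 and 0.03 over all genes. With 3 libraries against 3, the smallest p that an exact permutation test allows is 0.1, and each of the 8 chains other than Lama1 reached it. The number of chains that passed was 5 without E16.5 A, 6 without E16.5 B and 5 without E16.5 C. It was 3 without E18.5 A, 2 without E18.5 B and 6 without E18.5 C. Over all genes, calls in either direction went from 7000 to 4376, 4783 and 4082 without E16.5 A, B and C. They went to 1472, 2917 and 5686 without E18.5 A, B and C.

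Among the alpha chains, Lama5 made the largest gain in TPM. Its level was 132, 134 and 55.2 TPM in E16.5 A, B and C and 291, 291 and 279 TPM in the E18.5 libraries. The E18.5 libraries were nearly equal, whereas E16.5 C lay at under 0.5 of the level of the other E16.5 libraries. The mean rose 2.68-fold, and the log2 difference was 1.52 ± 0.33 (SE; limma, adjusted p = 0.0186). Without E16.5 C it was 1.11 (limma, adjusted p = 0.0103), and the call was lost without E18.5 A (limma, adjusted p = 0.0611) and without E18.5 B (limma, adjusted p = 0.0531). After median-of-ratios scaling the difference was 1.09 (limma, adjusted p = 0.0458).

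Lama1, the alpha chain of the earliest embryonic basement membranes, did not pass the test between the stages. Its level was 70.9, 78.5 and 48.3 TPM at E16.5 and 113, 117 and 75.9 TPM at E18.5. Replicate C had the lowest value at both stages, and E18.5 C lay below E16.5 B, so that the stages overlapped. The log2 difference was 0.62 ± 0.24 (SE; limma, adjusted p = 0.0802) and 0.20 after median-of-ratios scaling (limma, adjusted p = 0.481). The exact permutation test on the TPM gave p = 0.2. Without E18.5 C the log2 difference was 0.82 and passed (limma, adjusted p = 0.0432).

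Lama4, an alpha chain of vessel walls, rose as well, from low levels. Its level was 3.42, 2.65 and 1.58 TPM at E16.5 and 7.05, 9.34 and 12.2 TPM at E18.5. Every E18.5 library lay above every E16.5 library, and the libraries of a stage differed by up to 2.17 times at E16.5 and 1.74 times at E18.5. The log2 difference was 1.58 ± 0.29 (SE; limma, adjusted p = 0.0140), and it passed in all 14 alternative fits, with 1.23 after median-of-ratios scaling (limma, adjusted p = 0.0323).

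Lama2, the alpha chain of muscle and mesenchymal laminin, was listed at 2.83, 1.3 and 2.13 TPM at E16.5 and at 3.78, 6.74 and 10.9 TPM at E18.5. The E18.5 libraries spread 2.89-fold, with A lowest and C highest, and the stages did not overlap. The log2 difference of 1.33 ± 0.38 (SE; limma, adjusted p = 0.0380) did not pass after median-of-ratios scaling (1.0, limma, adjusted p = 0.13), and it passed in 4 of 13 alternative fits. Without E16.5 A, B or C it had an adjusted p of 0.0566, 0.0953 and 0.085 (limma), and without E18.5 B or C of 0.0948 and 0.0841 (limma).

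Lama3, the hemidesmosomal alpha chain, was listed at 0.738, 0.668 and 0.723 TPM at E16.5, from 56 to 68 reads, and at 1.69, 3.17 and 3.19 TPM at E18.5, from 124 to 174 reads. The 95% exact intervals for the reads ran from 0.505 to 0.936 TPM over the E16.5 libraries and from 1.40 to 3.76 TPM over the E18.5 libraries, and cover counting error only. E18.5 A lay lowest of its stage and still above all E16.5 libraries. The log2 difference was 1.08 ± 0.30 (SE; limma, adjusted p = 0.0339), was 0.83 after median-of-ratios scaling (limma, adjusted p = 0.0826), and passed in 3 of 13 alternative fits. It lost the call whichever 1 of the 6 libraries was left out, with log2 differences of 0.97 to 1.29 and adjusted p from 0.0561 to 0.1 (limma).

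Of the beta chains, Lamb1 rose and had its lowest level in the same library as Lama5. It was listed at 64.3, 64.8 and 25.0 TPM at E16.5 and at 108, 111 and 112 TPM at E18.5. E16.5 C was again far below the other E16.5 libraries, and the E18.5 libraries were nearly equal. The log2 difference was 1.21 ± 0.35 (SE; limma, adjusted p = 0.0386) and fell to 0.76 without E16.5 C (limma, adjusted p = 0.0129). It did not pass after median-of-ratios scaling (0.78, limma, adjusted p = 0.13) or without any 1 of the E18.5 libraries (limma, adjusted p from 0.0779 to 0.0941).

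Lamb2, the beta chain of mature basement membranes at synapses and in the kidney filter, differed less. Its level was 119, 136 and 95.8 TPM at E16.5 and 196, 209 and 156 TPM at E18.5. Replicate C was lowest at both stages, and the stages did not overlap. The log2 difference was 0.67 ± 0.17 (SE; limma, adjusted p = 0.0281), of which 0.26 remained beyond the median of all genes, and 0.24 was found after median-of-ratios scaling (limma, adjusted p = 0.191). The call was lost without E16.5 A, E16.5 C, E18.5 A or E18.5 B (limma, adjusted p from 0.0638 to 0.0884).

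Lamb3, the hemidesmosomal beta chain, was listed at 4.96, 2.44 and 1.95 TPM at E16.5 and at 9.20, 8.43 and 9.72 TPM at E18.5. Here E16.5 A was the high library of its stage, and the E18.5 libraries differed by no more than 1.15 times. The log2 difference was 1.36 ± 0.29 (SE; limma, adjusted p = 0.0187), and it was just above the threshold after median-of-ratios scaling (1.01, limma, adjusted p = 0.0507), without E18.5 A (1.36, limma, adjusted p = 0.0634) and without E18.5 B (1.41, limma, adjusted p = 0.0505).

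Lamc1, the gamma chain shared by most trimers, was listed at 252, 246 and 180 TPM at E16.5 and at 474, 471 and 395 TPM at E18.5. Replicate C was lowest at both stages, and the gap between the stages was wider than the spread within either. The mean rose 1.98-fold, the log2 difference was 0.99 ± 0.17 (SE; limma, adjusted p = 0.0115), and it passed in all 14 alternative fits. After median-of-ratios scaling it was 0.56 (limma, adjusted p = 0.0220).

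**Figure D2:**
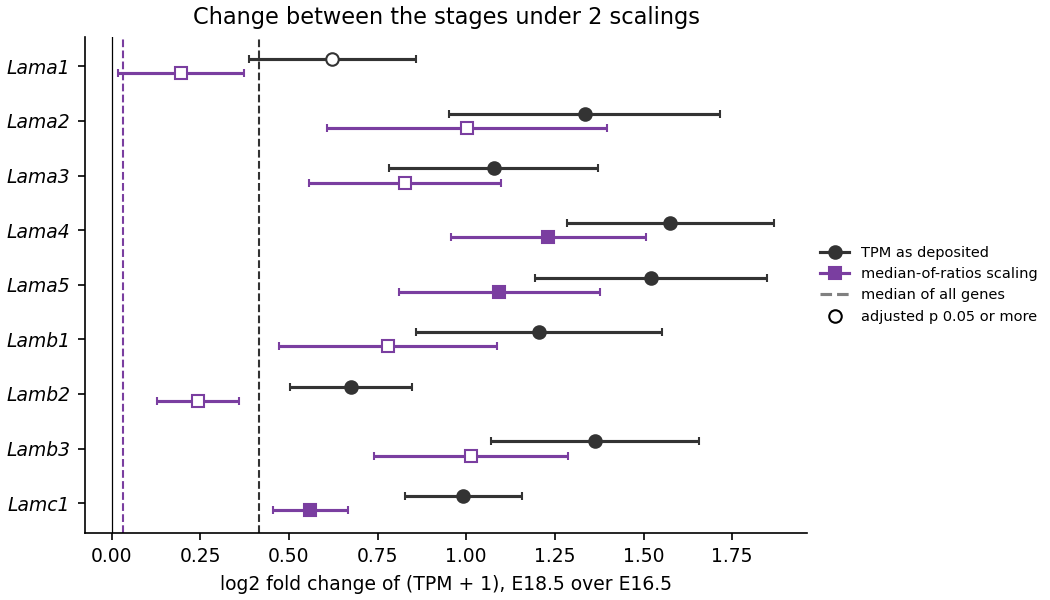
Log2 fold change of (TPM + 1), E18.5 over E16.5, for each laminin chain, with bars of 1 SE, on TPM as deposited (dark circles) and after median-of-ratios scaling (purple squares); open symbols have an adjusted p of 0.05 or more and dashed lines mark the median of all genes on each scaling. All 9 chains lie to the right of 0 on both scalings, and after rescaling only Lama4, Lama5 and Lamc1 keep a filled symbol.

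The makeup of the laminin transcripts within a library does not depend on scaling between libraries. Lama1 took 33.9%, 36.1% and 44.8% of the summed alpha chain TPM in E16.5 A, B and C, and 27.1%, 27.4% and 19.9% in the E18.5 libraries. Lama5 took 62.8%, 61.8% and 51.1% at E16.5 and 69.9%, 68.2% and 73.2% at E18.5. For both chains the stages did not overlap, with Lama1 lower and Lama5 higher in share at E18.5. The ratio of Lama5 to Lama1 was 1.57 ± 0.377 (SD, n = 3) at E16.5 and 2.92 ± 0.662 at E18.5. Lama2, Lama3 and Lama4 together made up the small remainder of the alpha chains, and of these the share of Lama4 was higher in every E18.5 library (1.44 ± 0.209% and 2.36 ± 0.772%).

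Among the beta chains, Lamb2 took 69.4 ± 7.69% (SD, n = 3) at E16.5 and 60.9 ± 3.99% at E18.5, and Lamb1 took 28.8 ± 7.37% and 36.1 ± 3.54%. Lamb1 had its lowest share, 20.3%, in E16.5 C, and the shares of E16.5 A and B (34.1% and 31.8%) were close to those of E18.5 A and B (34.4% and 33.8%). The shares of all 3 beta chains overlapped between the stages. Without E16.5 C the difference in share, E18.5 minus E16.5, went from 7.37 to 3.16 percentage points for Lamb1 and from -8.57 to -4.25 for Lamb2. With the length of the principal transcript, Lamb1 took 39.6% and 47.9% and Lamb2 58.5% and 49.0% of the beta chain level.

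Set against Lamc1 in the same library, the chains gave ratios of either direction. The ratio of Lama5 to Lamc1 was 0.458 ± 0.132 (SD, n = 3) at E16.5 and 0.646 ± 0.0530 at E18.5, and did not overlap, and its difference of 0.188 was 0.112 without E16.5 C. The ratio of Lama1 to Lamc1 was 0.290 ± 0.0262 and 0.226 ± 0.0297, and that of Lamb2 to Lamc1 was 0.520 ± 0.0415 and 0.418 ± 0.0242, both lower in every E18.5 library. The ratio of Lamb1 to Lamc1 was 0.219 ± 0.0697 and 0.248 ± 0.0299 and overlapped, and its difference of 0.0290 turned to -0.0112 without E16.5 C and was 0.0470 without E16.5 A, 0.0512 without E16.5 B and 0.0119 without E18.5 C. Lamc1 held a near-constant part of the 9 chains, 39.8 ± 3.58% at E16.5 and 38.4 ± 0.974% at E18.5.

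**Figure D3:**
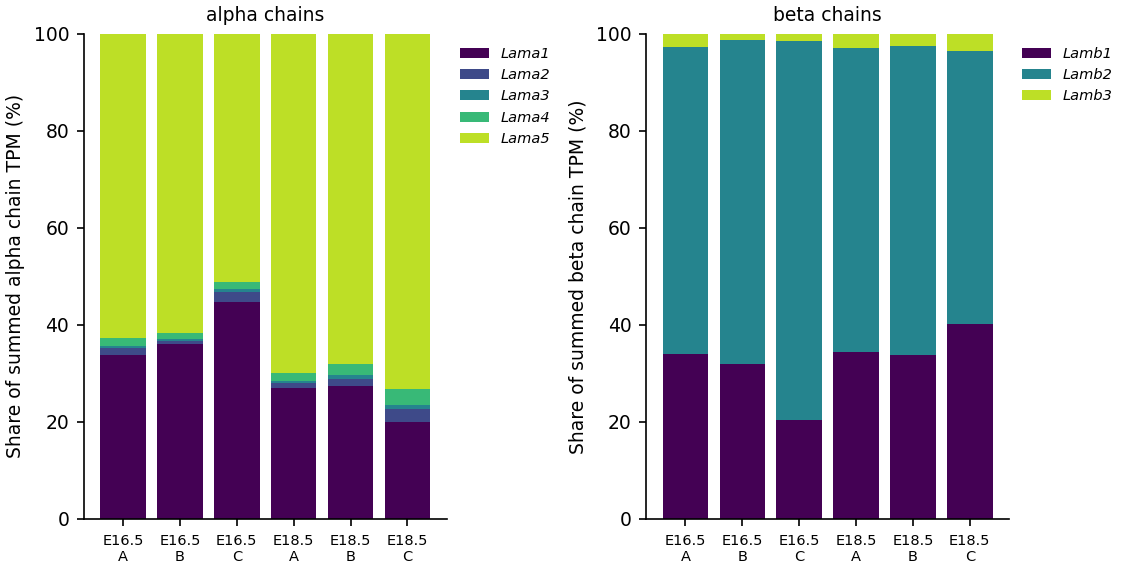
Share of the summed alpha chain TPM (left) and of the summed beta chain TPM (right) taken by each chain in every library, in percent. The Lama1 part is smaller in all E18.5 libraries, at 19.9% to 27.4%, than in all E16.5 libraries, at 33.9% to 44.8%, whereas the parts of Lamb1 and Lamb2 overlap between the stages.

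Genes most like a chain were sought among 114 listed genes (receptors, partners and cell type markers) by Pearson's r of log2(TPM + 1) over the 6 libraries, as a description. These values share the stage difference, the libraries and their depth, and r after subtraction of the stage means is therefore given too. Lamb1 was most like Krt7 (r = 0.999, and 0.996 within stages) and then Krt19 (0.994 and 0.986), the keratins of biliary epithelium. Lama5 was most like Bcam (0.996 and 0.983), a laminin receptor that binds this alpha chain, and Itgb4 (0.994 and 0.975). Both keratins, like Lamb1 and Lama5, had their lowest level in E16.5 C, at 7.89 TPM for Krt7 and 20.1 TPM for Krt19, against 24.2 and 90.8 TPM in E16.5 B.

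Lama2 was most like the fibrillar collagens Col1a1 (0.988, and 0.989 within stages) and Col3a1 (0.987 and 0.994). Col1a1 was listed at 85.5, 37.2 and 67.7 TPM at E16.5 and at 87.4, 160 and 270 TPM at E18.5, the same order of libraries as Lama2 at either stage. The 10 mesenchyme markers summed to 164–320 TPM in E16.5 libraries and to 304, 499 and 770 TPM in E18.5 A, B and C. Of them, 3 rose and 7 did not pass (limma), where 26.0% of all genes were higher. After median-of-ratios scaling 1 passed, where 7.34% of all genes were higher. All 10 differences were positive with a median of 1.05 on the log2 scale, and every marker was detected. The part of these cells in the level of Lama2 was not tested. In RNA of a sorted pool, fewer cells of a type and less RNA per cell cannot be told apart.

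Lama3 was most like Lrrn4 (0.979, and 0.883 within stages) and Col4a4 (0.976 and 0.811), Lama4 like Col4a4 (0.985 and 0.899) and Upk3b (0.984 and 0.873), and Lamb3 like Wt1 (0.981 and 0.882) and Plec (0.978 and 0.889), which encodes a hemidesmosome linker. Lrrn4, Upk3b and Wt1 are markers of mesothelium, the covering layer of the liver. All 5 mesothelial markers rose (limma), with a median log2 difference of 1.92, where 26.0% of all genes were higher. After median-of-ratios scaling all 5 were still higher, where 7.34% of all genes were. Their sum went from 4.0–11.7 TPM in the E16.5 libraries to 42.0–85.2 TPM in the E18.5 libraries. The 8 endothelial markers, set beside the vascular chain Lama4, summed to 106–171 TPM and 116–213 TPM. Of the 8, 2 were higher and 6 did not pass (limma), where 26.0% of all genes were higher. Neither of the 2 passed after rescaling. The part of either cell type in the levels of Lama3, Lama4 and Lamb3 was not tested. Of the remaining chains, Lamb2 was most like Agrn (0.992 and 0.968) and Lamc1 like Pxn (0.997 and 0.978) and Spp1 (0.993 and 0.949).

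**Figure D4:**
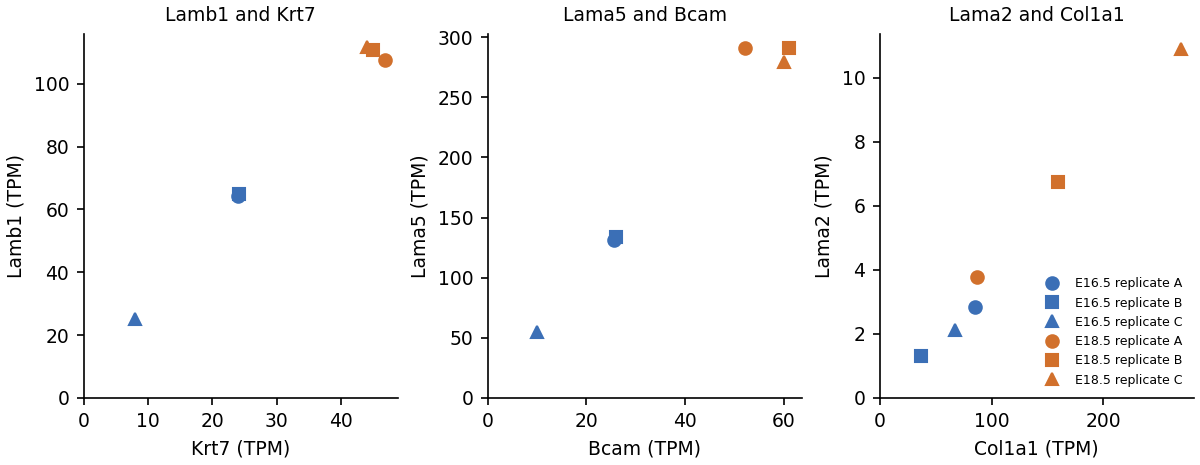
Level of Lamb1 against Krt7, Lama5 against Bcam and Lama2 against Col1a1 (TPM, linear axes), with 1 point per library, E16.5 in blue and E18.5 in orange. In the first 2 panels E16.5 C lies lowest and the E18.5 libraries lie together, whereas Lama2 and Col1a1 spread most among the E18.5 libraries, from A to C.

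The partners that bind laminin in the basement membrane did not all go the way of the chains. Of 18 listed partners, 11 rose, 2 fell and 5 did not pass (limma), with a median log2 difference of 0.98, where 26.0% of all genes were higher and 5.22% lower. After median-of-ratios scaling 5 were higher and 2 lower, with a median of 0.61, where 7.34% of all genes were higher and 10.1% lower. Those that rose include the collagen IV chains Col4a1 (1.24 ± 0.21, limma, adjusted p = 0.0123), Col4a2 (1.23 ± 0.22, limma, adjusted p = 0.0134) and Col4a5 (1.71 ± 0.24, limma, adjusted p = 0.00931), which build the second network of the membrane. Agrn, which encodes agrin, a proteoglycan that binds the laminin coiled coil, went from 273, 294 and 157 TPM to 625, 726 and 459 TPM (1.34 ± 0.28, limma, adjusted p = 0.0168). Hspg2, which encodes perlecan, had a log2 difference of 0.94 ± 0.22 (limma, adjusted p = 0.0225), and Tinagl1, a laminin-binding matrix protein, one of 1.76 ± 0.46 (limma, adjusted p = 0.0292), and neither passed after rescaling (limma, adjusted p = 0.082 and 0.074).

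The 2 partners that fell were the nidogens, which bind the laminin gamma 1 chain and join laminin to collagen IV. Nid1 was listed at 246, 244 and 278 TPM at E16.5 and at 107, 118 and 157 TPM at E18.5. All E18.5 libraries lay below all E16.5 libraries, and the log2 difference was -1.02 ± 0.16 (SE; limma, adjusted p = 0.0106) and -1.45 after median-of-ratios scaling (limma, adjusted p = 0.0131). Nid2 was listed at 46.7, 43.9 and 35.8 TPM at E16.5 and at 20.1, 27.8 and 29.7 TPM at E18.5. It had a log2 difference of -0.69 ± 0.18 (SE; limma, adjusted p = 0.0312). Among the E16.5 libraries, C was thus the highest for Nid1 and the lowest for Nid2. Per library, the ratio of Nid1 to Lamc1 was 1.17 ± 0.326 (SD, n = 3) at E16.5 but 0.291 ± 0.0925 at E18.5. The ratio of Nid2 to Lamc1 was 0.188 ± 0.0106 and 0.0588 ± 0.0164, and neither ratio overlapped between the stages. The ratio of Hspg2 to Lamc1, by contrast, was 0.642 ± 0.0808 and 0.622 ± 0.0785 and overlapped. All 6 megakaryocyte markers fell (limma, median log2 difference -4.39), as did 6 of 8 hepatoblast markers (limma, median log2 difference -1.41), where 5.22% of all genes fell. Both lists moved between the stages in the same direction as the nidogens. The part of either cell type in the nidogen levels was not tested.

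Of 12 listed laminin receptors 11 were tested, of which 5 rose, 2 fell and 4 did not pass (limma). Over all genes, 26.0% were higher and 5.22% lower. The median log2 difference of the receptors was 0.36, beside 0.42 over all genes. After median-of-ratios scaling 2 were higher and 2 lower, where 7.34% of all genes were higher and 10.1% lower. The median of the receptors was then -0.07, beside 0.03 over all genes. Bcam went from 25.7, 26.0 and 10 TPM to 52.1, 61.0 and 60.0 TPM (1.55 ± 0.34, limma, adjusted p = 0.0195). Itgb4, the integrin subunit of hemidesmosomes, went from 8.31–18.3 TPM to 34.5–39.9 TPM (1.36 ± 0.28, limma, adjusted p = 0.0162). Like Lama5, both had their lowest level in E16.5 C and no overlap between the stages. Itga6, the alpha subunit that pairs with Itgb4, fell from 105, 60.8 and 120 TPM to 23.6, 40.6 and 26.2 TPM (-1.61 ± 0.30, limma, adjusted p = 0.0139). Itga2, a collagen and laminin receptor of platelets and epithelia, also fell (-2.31 ± 0.43, limma, adjusted p = 0.0142). The integrin gene Itga2b, one of the megakaryocyte markers, had its highest level in E16.5 C, as Itga6 and Itga2 had, at 610 TPM, and its part in their levels was not tested.

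Itga3, which pairs with Itgb1 as a receptor for Lama5 and Lama3 trimers, rose by 0.86 ± 0.18 on the log2 scale (limma, adjusted p = 0.0172), and was just above the threshold after median-of-ratios scaling (0.43, limma, adjusted p = 0.0548). Dag1, which encodes dystroglycan, rose by 0.58 ± 0.15 (limma, adjusted p = 0.0305), with 0.15 after rescaling (limma, adjusted p = 0.284). Itgb1 had a log2 difference of 0.21 as deposited (limma, adjusted p = 0.267) and of -0.22 after rescaling (limma, adjusted p = 0.234).

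**Figure D5:**
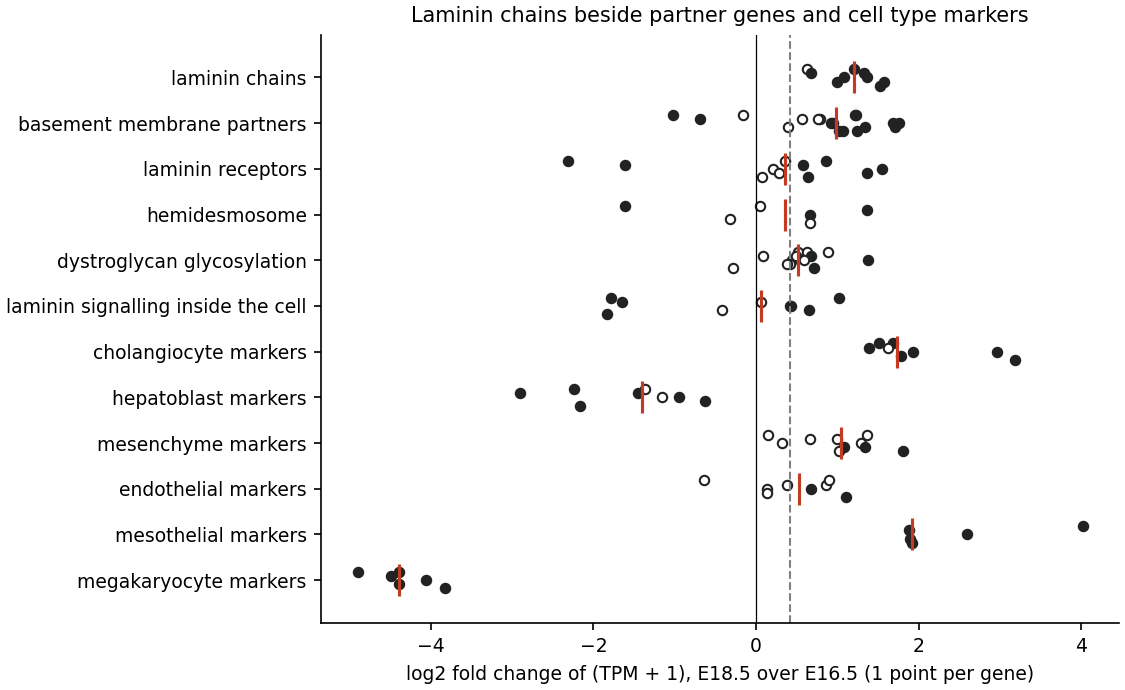
Log2 fold change of (TPM + 1), E18.5 over E16.5, for each gene of the laminin chains, of their partners and receptors, and of cell type markers, with 1 point per gene; filled points have an adjusted p under 0.05 (limma), red bars mark the median of a list and the dashed line marks the median of all genes, 0.42. The laminin chains lie at 0.62 to 1.58, and 2 basement membrane partners with filled points, the nidogens, lie to the left of 0.

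Lamc3, another gamma chain, was outside the chosen set and was added after its values were seen. It was at 0.295 to 0.536 TPM in the E16.5 libraries, from 14 to 28 reads, and then at 1.49 to 2.92 TPM, from 39 to 91 reads. The difference passed (limma, adjusted p = 0.0428), but not after median-of-ratios scaling (limma, adjusted p = 0.0817), and it passed in 3 of 12 alternative fits. Of the exon bases of Lamc3, 6.27% are shared with an antisense gene. Lamc1 exceeded Lamc3 in all 6 libraries.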

How the data were processed

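RNA was measured in 6 libraries of sorted GFP+ cells, 3 per stage. The authors built libraries with a stranded total RNA kit, passed reads through FastQC 0.11.7 and Trimmomatic, mapped them to GRCm38 by HISAT2 2.1.0, assigned them to GENCODE vM15 genes by HTSeq 0.5.4p3 (versions per the labels) and deposited the counts as TPM. A TPM is a share of its library, so the rise or fall of abundant transcripts moves all others.

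Gene names and places came from GENCODE vM21, which holds 52403 of the 52550 listed identifiers. Multiplying TPM by exon length returned the reads (100% of 180057 values above 0 were whole within 0.01), which gave 13093937 to 26206374 reads per library; a limit of 3 reads was 0.0214 to 0.121 TPM for the members. Lama1 has another identifier version there, and its length, 9518 bp, was the only one giving whole reads in all 6 libraries. Exact (Clopper-Pearson) intervals at 95% cover counting error only.

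Values entered limma 3.58.1 (R 4.3.3) as log2(TPM + 1), with stage as the only term and empirical Bayes moderation that follows the mean-variance trend. The 22452 genes averaging 1 TPM or more were tested, p-values were adjusted by Benjamini-Hochberg over all of them at a threshold of 0.05, and all 9 members passed this filter. The step was tested on simulated data. Two-sided exact permutation tests ran in Python 3.11.15 with scipy 1.17.1. Fold changes on this scale understate those of low genes. Alternatives covered the pseudocount, the filter, the scaling, the trend, the replicate letter, recovered reads with voom, and each library left out. Chi-square values per degree of freedom between libraries of a stage were 17.1 or more, above sampling noise, and all 6 libraries were kept.

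Named genes are the 9 members, the 2 largest and the 2 smallest log2 differences of a list, the direct laminin partners and the 2 genes most like a member. The members and lists were chosen with earlier results of these data known. Protein sequences were not used here. Some values are not reported here.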

Additional observations from a re-analysis of the deposited data

How the results depend on the processing

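The 9 log2 differences of the members stayed positive in every alternative fit that could test them. Of 123 such values, 82 kept their side of the threshold, 39 lost the call and 2 gained it (Lama1, with the replicate block and without E18.5 C). Of the 9 chains, 8 passed with a pseudocount of 0.1, 6 without the trend, 4 with no filter on low values, 3 after median-of-ratios scaling and 4 after quantile normalization. With voom on recovered reads 8 of 8 passed, Lama1 having no length of its own version there. With a mean of at least 5 TPM, 6 of 7 passed. Without 1 library the number was 2 to 6. Over all genes, 7000 were called, against 4282 with no filter, 3895 after median-of-ratios scaling, 3796 after quantile normalization, and 1472 (without E18.5 A) to 5686 (without E18.5 C) with 1 library left out.

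With the replicate letter as a replicate block, 7 chains passed. Over all genes, 7314 were called with the block, against 7000 without it. The labels do not say whether the letters pair the libraries. Deviations of same-letter libraries correlated at -0.0425 for A, 0.0814 for B and 0.14 for C, and those of unlike letters at -0.146 to 0.0842. With 3 libraries per stage these values cannot decide whether the letters pair them.

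Of 64 alternative values for shares and ratios, 63 kept the sign of the main difference. The ratio of Lamb1 to Lamc1 changed sign without E16.5 C, and its difference between the stages was -0.0112 to 0.0512 with 1 library left out. Most of the 64 values only leave out 1 library, so they describe the weight of single libraries and are no test. Depth limits Lama3 most, at 56 reads in its lowest library.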

Other observations

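Dystroglycan binds laminin only once it carries a sugar chain built in the Golgi and the endoplasmic reticulum. Of 13 listed genes of that glycosylation, 3 rose and 10 did not pass (limma), where 26.0% of all genes were higher and 5.22% lower. The median log2 difference was 0.51, beside 0.42 over all genes. After median-of-ratios scaling 1 was higher and 1 lower, where 7.34% of all genes were higher and 10.1% lower. These shares are close to those of all genes. Pomgnt2, which adds an early sugar of the chain, had the largest difference (1.37 ± 0.22, limma, adjusted p = 0.0107) and was listed at 20.6, 25.5 and 13.8 TPM at E16.5 and at 54.1, 53.8 and 47.8 TPM at E18.5. Pomt1, which acts before it, had the smallest (-0.28 ± 0.14, limma, adjusted p = 0.143), and it was lower after median-of-ratios scaling (-0.69, limma, adjusted p = 0.0133).

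Of 10 listed genes of laminin signalling inside the cell, 9 were tested. Of these, 4 rose, 3 fell and 2 did not pass (limma), where 26.0% of all genes were higher and 5.22% lower. Their median log2 difference was 0.06. After median-of-ratios scaling 1 was higher and 4 were lower, with a median of -0.36, where 7.34% of all genes were higher and 10.1% lower. The adaptor genes Tln1 (-1.83 ± 0.28, limma, adjusted p = 0.0105) and Vcl (-1.78 ± 0.29, limma, adjusted p = 0.0113) fell, with their highest level in E16.5 C, where the megakaryocyte markers were highest too; the part of those cells was not tested. Parva, which encodes parvin alpha, rose (1.02 ± 0.19, limma, adjusted p = 0.0139), and Pxn, which encodes paxillin, rose (0.65 ± 0.13, limma, adjusted p = 0.0158) but did not pass after rescaling (limma, adjusted p = 0.0995).

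Of 6 listed hemidesmosome genes, 2 rose, 1 fell and 3 did not pass (limma), where 26.0% of all genes were higher and 5.22% lower. After median-of-ratios scaling 1 was higher and 3 were lower, where 7.34% of all genes were higher and 10.1% lower. Plec, which encodes plectin, rose by 0.67 ± 0.16 (limma, adjusted p = 0.0247), with 0.25 after median-of-ratios scaling (limma, adjusted p = 0.220).

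The remaining marker lists stood beside the laminin chains as follows, where 26.0% of all genes were higher and 5.22% lower (limma). Of 4 pancreatic acinar markers, 2 fell (limma; neither passed after median-of-ratios scaling), and their sum was 2367 TPM in E16.5 A against 14.4 to 216 TPM in the other libraries. The log2 differences of the 4 erythroid markers, which did not pass, lay between -0.29 and 0.28, those of the 2 tested glial markers, which did not pass either, were -0.06 and 0.97, and 2 of 4 leukocyte markers rose (limma) but did not pass after rescaling.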
